A study of Mus musculus with 18 samples.

Results

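The genes described here are 10 known transcriptional targets of p53 that act in growth arrest, apoptosis and stress defense: *Cdkn1a*, *Mdm2*, *Ccng1*, *Gdf15*, *Bax*, *Bbc3*, *Trp53inp1*, *Sesn1*, *Phlda3* and *Eda2r*. They were chosen by name from the known p53 program, out of 47729 genes counted, with earlier results of these data known. All 10 were among the 18958 genes with enough reads to be tested. RNA of the retinal pigment epithelium (RPE) was profiled at P40 in 9 mice that the labels call *rd1*, an FVB/N strain that lacks Pde6b function and loses its rods early. The study's methods give fewer pairs of *rd1* eyes at this age than the labels do and also describe pairs from CD-1 mice, which have no such degeneration. Its *rd1* and CD-1 pairs of this age add up to the number of pairs used here, so some of these mice may not be *rd1*. The labels and the methods did not resolve this, and the genotype behind every value below rests on the labels. In each mouse, 1 eye had been injected with AAV-Best1-Nrf2, which carries the human cDNA, plus AAV-Best1-GFP, while the other eye got AAV-Best1-GFP only. These are called Best1-Nrf2 and control eyes. In every control eye the mean log2 level of rod markers, from counts scaled to library size, was below that of cone markers. The ranges were 1.68 to 2.88 for rod and 4.33 to 6.98 for cone markers. The rod genes *Nrl* and *Nr2e3* had too few reads to be tested. Whether these levels tell *rd1* from CD-1 eyes was not tested. Eyes of both groups were labelled *rd1* and received the GFP vector, and the treated eye also received a further vector, so that Nrf2 and the added vector cannot be told apart. The Best1 promoter limits the transgene to the RPE, whereas the RNA came from the eyecup after the retina had been lifted off and could include other cells. In such bulk samples, fewer cells of a type and less RNA per cell cannot be told apart.

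p53, encoded by *Trp53*, is a transcription factor that is held at a low level by the ubiquitin ligase Mdm2 and is stabilized when DNA is damaged or a cell is stressed. It then raises genes that stop the cell cycle, that promote apoptosis, and that repair or protect the cell, and it raises *Mdm2* itself, which closes a feedback loop. The mature RPE is a postmitotic epithelium, in which several of these genes are also controlled by other stress-responsive factors.

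Promoter sequence gives the context for these genes, because p53 binds DNA through pairs of a 10-base half-site. Windows from 250 bases before to 50 bases after each annotated start were taken from RefSeq on build GRCm38.p6, and 9 of the 10 genes had at least 1 window. The p53 half-site decamer reads the same on both strands, and it was present in the windows of 5 of these 9 genes (55.6%), compared with 9.55% of the 27025 genes with a window. The genes with it were *Cdkn1a*, *Mdm2*, *Ccng1*, *Bax* and *Sesn1*. The core of the antioxidant response element to which Nrf2 binds, TGACNNNGC on either strand, was present in 2 of 9 (22.2%; *Cdkn1a* and *Eda2r*), compared with 14% of all genes. No window of these genes held both motifs. A match is a description of the letters and not evidence of binding. The windows below are shown because they belong to a called gene with 2 half-sites (*Cdkn1a*, upstream start), to another called gene, with 1 half-site (*Ccng1*), to the p53 feedback gene (*Mdm2*), and to the gene with the largest fold change, which had no half-site (*Eda2r*). Each is written 5′ to 3′ on the strand of the gene, with half-sites in capitals.
Cdkn1a upstream start, chr17:29090729-29091028, plus strand: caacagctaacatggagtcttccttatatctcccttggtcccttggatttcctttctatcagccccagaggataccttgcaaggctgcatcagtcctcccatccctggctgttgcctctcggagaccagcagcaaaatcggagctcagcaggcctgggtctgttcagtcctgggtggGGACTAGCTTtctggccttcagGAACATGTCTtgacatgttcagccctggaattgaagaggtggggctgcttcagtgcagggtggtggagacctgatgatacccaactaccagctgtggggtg
Ccng1, chr11:40755237-40755536, minus strand: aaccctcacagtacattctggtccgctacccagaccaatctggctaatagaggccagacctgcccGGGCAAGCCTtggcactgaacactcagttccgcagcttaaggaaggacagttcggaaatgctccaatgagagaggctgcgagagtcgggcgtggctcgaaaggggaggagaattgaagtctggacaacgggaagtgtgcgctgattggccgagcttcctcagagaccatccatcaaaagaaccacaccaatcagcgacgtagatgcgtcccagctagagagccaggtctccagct
Mdm2, chr10:117710709-117711008, minus strand: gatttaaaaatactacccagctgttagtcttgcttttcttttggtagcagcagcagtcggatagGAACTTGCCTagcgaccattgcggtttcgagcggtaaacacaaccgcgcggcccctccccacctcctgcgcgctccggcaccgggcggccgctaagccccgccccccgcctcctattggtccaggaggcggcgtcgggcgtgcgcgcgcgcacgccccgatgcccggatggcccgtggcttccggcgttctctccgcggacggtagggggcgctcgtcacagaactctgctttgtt
Eda2r, chrX:97377160-97377459, minus strand: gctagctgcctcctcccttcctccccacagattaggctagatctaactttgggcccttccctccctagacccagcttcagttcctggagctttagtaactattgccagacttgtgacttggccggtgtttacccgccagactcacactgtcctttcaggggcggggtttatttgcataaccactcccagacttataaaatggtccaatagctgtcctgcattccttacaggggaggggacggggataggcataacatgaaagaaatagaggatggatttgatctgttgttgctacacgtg

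The half-sites of *Cdkn1a* began at positions -73 and -51, counted with the upstream start as 1, that of *Ccng1* at -185, and that of *Mdm2* at -186. The antioxidant response element core of *Eda2r* began at -137. That of *Cdkn1a* lay at position 28 from its downstream start, whose window (chr17:29093519-29093818) held no half-site.

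Library totals were 18956748 to 44054836 counts in control eyes and 32839893 to 49598700 in Best1-Nrf2 eyes. Counts assigned to *Nfe2l2*, the mouse gene for Nrf2, rose from 89.7 ± 17.8 to 453 ± 147 CPM, that is, counts scaled to the size of the library (mean ± SD, n = 9 per group). The groups did not overlap (edgeR, log2 fold change 2.29, adjusted p = 6.21e-05). Reads of the mouse gene and reads of the human cDNA that were assigned to it cannot be told apart here. At an adjusted p under 0.05, 4.25% of all genes tested were called, 3.12% being higher and 1.13% lower with Best1-Nrf2 (edgeR quasi-likelihood test with mouse as a block, Benjamini-Hochberg adjustment). Some libraries stood apart along the first principal component of all genes, which held 26.3% of the variance. The control eyes of mice 3, 5 and 8 and the treated eyes of mice 3 and 6 lay at its high end, with scores of 54.9 to 122, whereas the other libraries lay between -83.6 and 16.5. In 4 of these 5 libraries mitochondrial transcripts took the largest shares of counts, 4.62% to 7.38%. In control eye 8 and the other 13 libraries the share was 1.54% to 3.55%. Further fits left out mice 3, 5 and 6 or took this component as a covariate, both added after the data were seen.

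Of the 10 p53 target genes, 4 rose with Best1-Nrf2 and none fell: *Cdkn1a*, *Ccng1*, *Gdf15* and *Eda2r*. This is 40%, set against the 4.25% of all genes that were called. These genes were chosen with earlier results of these data known, so such shares are descriptive and test no excess. With an unadjusted p under 0.05 there were 7, against 12.8% of all genes, each with a positive log2 fold change, and none was called lower by DESeq2 or voom. The log2 fold change was positive for 9 of 10, with a median of 1.02, compared with a median of -0.03 over all genes. The mean log2 CPM of the 10 genes was higher in the treated eye of all 9 mice, by 1.04 ± 0.49 (SD; range, 0.41 to 1.68). The count of called genes was 7 with DESeq2, 2 without mouse 7, 6 with the first component as a covariate and 3 without mice 3, 5 and 6, and these fits called 1478, 540, 1064 and 500 of all genes. It was 0 when the mean level of photoreceptor, macrophage or RPE markers was added as a covariate (marker values follow the results below).

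**Figure D1:**
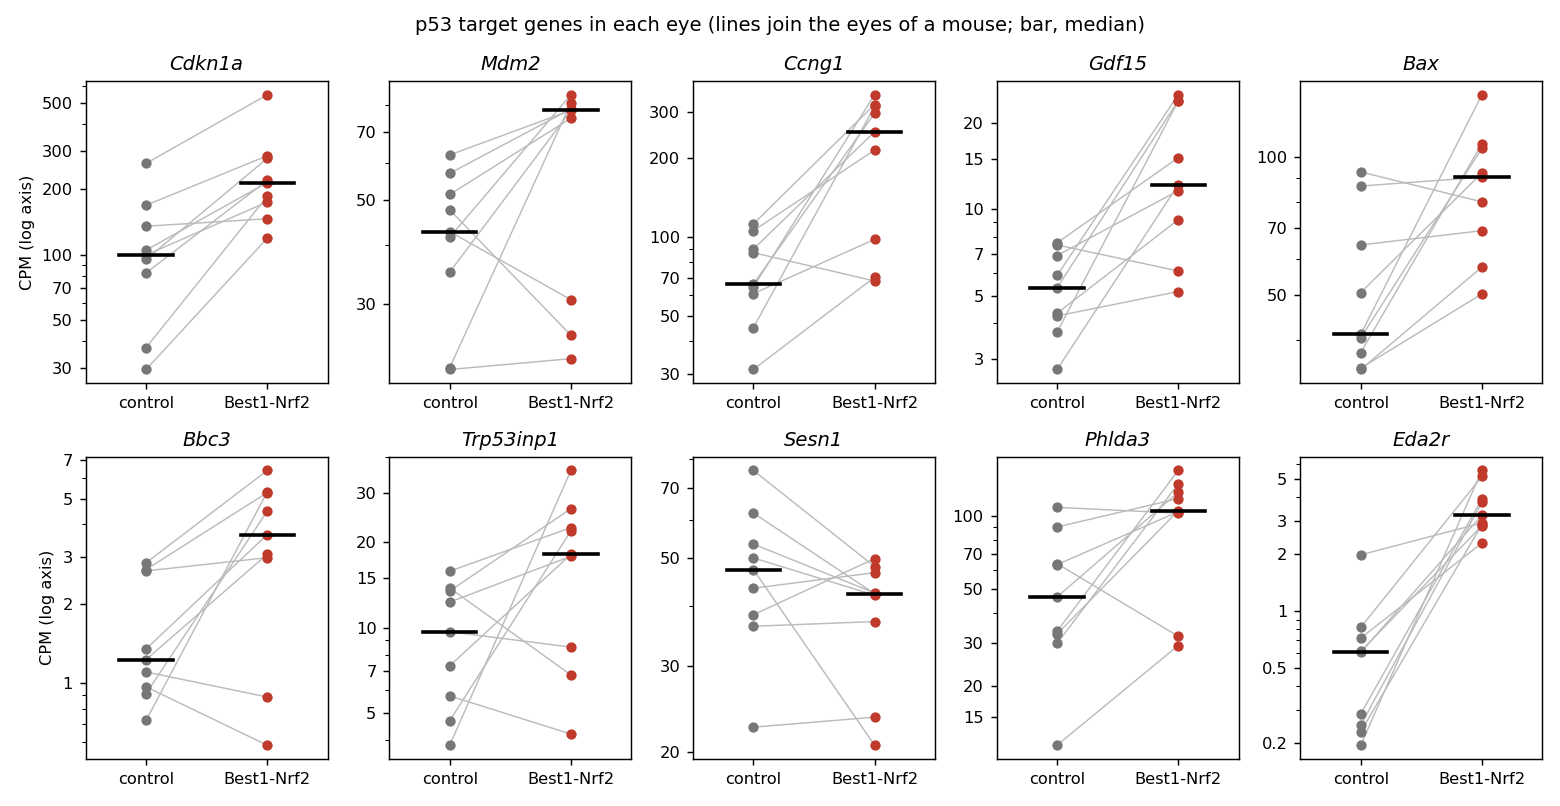
CPM of the 10 p53 target genes in each of the 18 eyes, on log axes; grey points are control eyes, red points Best1-Nrf2 eyes, lines join the eyes of a mouse and bars mark group medians. Only the groups of *Eda2r* are separate; 3 treated eyes lie far below the rest for *Mdm2* and *Ccng1*.

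Of the genes that act on the cell cycle and p53 itself, *Cdkn1a* (chr17:29090976-29100727, plus strand, GRCm38) encodes p21, an inhibitor of cyclin-dependent kinases and the classic effector of p53-dependent arrest. Its lowest, median and highest levels were 29.5, 99.6 and 263 CPM in control eyes and 119, 215 and 546 CPM in Best1-Nrf2 eyes. With TMM scaling, the one used unless another is named, the treated eye was the higher one in all 9 mice, as 4.34% of all genes were higher or lower in every mouse. With upper-quartile scaling it was higher in 8 of 9, mouse 3 being at -0.01 on the log2 scale. The groups overlapped, since control eyes 3, 5 and 8 were above the lowest treated eye. The mean rose from 113 ± 71.1 to 241 ± 127 CPM (SD, n = 9). This was a log2 fold change of 1.23 ± 0.22 (SE; 95% interval, 0.74 to 1.71), or 2.34-fold, with an adjusted p of 0.00698 in edgeR. The difference between eyes was smallest in mouse 3, at 0.11 on the log2 scale, and largest in mouse 9, at 2.31. Without mouse as a block the log2 fold change was 1.09 and did not pass (edgeR, adjusted p = 0.138). *Cdkn1a* shares 9.78% of its 31-base words with other genes, mostly with AC167363.2, which overlaps it on the opposite strand, and counting by strand is not stated, so their reads cannot be told apart.

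*Mdm2* (chr10:117688875-117710758, minus strand), the ligase that degrades p53, had lowest, median and highest levels of 21.7, 42.8 and 62.5 CPM in control eyes and 22.9, 77.8 and 84.0 CPM in Best1-Nrf2 eyes. The treated eyes fell into distinct sets of levels, with mice 3, 6 and 8 at 22.9, 25.7 and 30.6 CPM and the other 6 at 74.8 to 84.0 CPM, above every control eye. As a whole, the log2 fold change was 0.45 ± 0.26 (95% interval, -0.12 to 1.02) and did not pass the test (edgeR, adjusted p = 0.547). The control eyes with the lowest *Mdm2*, 3 and 5, at 21.7 and 21.9 CPM, were also at the high end of the first component, where control eye 8 was at the control median, 42.8 CPM. The part of that component in the result was measured by its covariate fit, where the log2 fold change was 0.32 (edgeR, adjusted p = 0.390).

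*Ccng1* (chr11:40748552-40755311, minus strand) encodes cyclin G1, which binds protein phosphatase 2A and acts with Mdm2 on p53. Its levels were 31.2, 66.2 and 112 CPM (lowest, median, highest) in control eyes and 68.0, 252 and 350 CPM in Best1-Nrf2 eyes. The lowest treated eyes were again those of mice 6, 3 and 8, at 68.0, 70.2 and 98.0 CPM, and the other 6, at 215 CPM or more, were above all controls. The level rose in 8 of 9 mice, the exception being mouse 6, where it was 0.36 lower on the log2 scale. Its log2 fold change was 1.45 ± 0.30 (95% interval, 0.79 to 2.10), or 2.72-fold (edgeR, adjusted p = 0.0153). It was 1.27 with the first component as a covariate (edgeR, adjusted p = 0.00216). Without mouse 7 the call was lost (edgeR, log2 fold change 1.35, adjusted p = 0.0517).

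**Figure D2:**
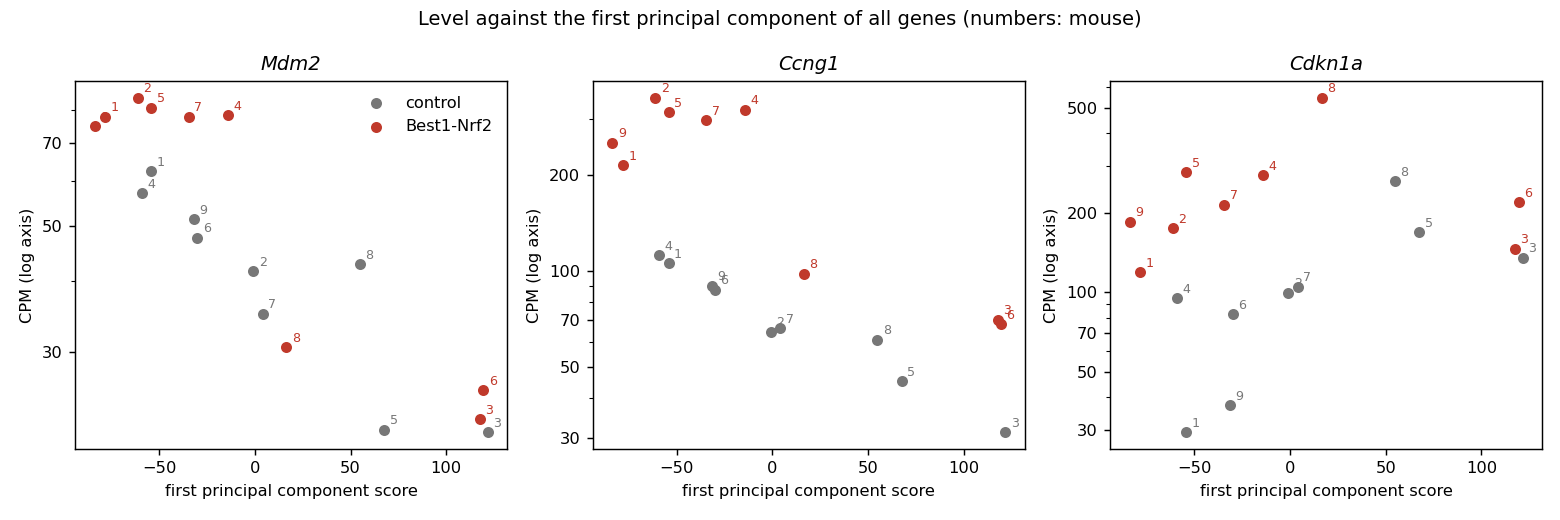
CPM (log axes) of *Mdm2*, *Ccng1* and *Cdkn1a* against the score of each library on the first principal component of all genes tested; grey, control eyes; red, Best1-Nrf2 eyes; numbers are mice. Treated eyes 3 and 6 and control eyes 3 and 5, at high scores, have the lowest *Mdm2* and *Ccng1* of their groups, whereas control eye 8, with a score of 54.9, has 42.8 and 60.8 CPM, near the control medians.

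*Trp53inp1* (chr4:11156431-11174379, plus strand) encodes a stress-induced nuclear protein that promotes p53 phosphorylation. It had levels of 3.84, 9.66 and 15.8 CPM (lowest, median, highest) in control eyes and 4.20, 18.1 and 35.9 CPM in Best1-Nrf2 eyes. It was higher in 6 of 9 mice and lower in mice 3, 6 and 8. Its log2 fold change was 0.76 ± 0.40 (95% interval, -0.11 to 1.64; edgeR, adjusted p = 0.484). *Phlda3* (chr1:135766119-135769136, plus strand) encodes a pleckstrin homology protein that keeps Akt from the membrane. Its levels were 11.5, 46.6 and 109 CPM in control eyes and 29.4, 105 and 154 CPM in Best1-Nrf2 eyes, where mice 3 and 6 were at 29.4 and 32.1 CPM and the other 7 at 103 CPM or more. The log2 fold change of *Phlda3* was 1.01 ± 0.33 (95% interval, 0.30 to 1.72), higher in 7 of 9 mice, and did not pass (edgeR, adjusted p = 0.143). Without mouse 6 it was 1.24 and passed (edgeR, adjusted p = 0.0174).

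Of the apoptosis genes, *Bax* (chr7:45461697-45466898, minus strand) encodes the effector that forms pores in the mitochondrial outer membrane. Its levels were 34.5, 41.1 and 92.9 CPM (lowest, median, highest) in control eyes and 50.4, 90.5 and 137 CPM in Best1-Nrf2 eyes. It was higher in 8 of 9 treated eyes, but 4 control eyes lay within the treated range, the highest being eyes 3 and 5, at 92.9 and 86.6 CPM. The log2 fold change was 0.74 ± 0.22 (95% interval, 0.26 to 1.23; edgeR, adjusted p = 0.105). With the first component as a covariate it was 0.85 and passed (edgeR, adjusted p = 0.0163). *Bax* shares 11.1% of its 31-base words with other genes, chiefly the overlapping Gm45808. *Bbc3* (chr7:16308393-16318205, plus strand), which encodes the BH3-only protein Puma that activates Bax, was scarce, at 0.72, 1.23 and 2.86 CPM in control eyes and 0.58, 3.65 and 6.39 CPM in Best1-Nrf2 eyes. Treated eyes 8 and 3 were at 0.58 and 0.89 CPM and the other 7 at 2.99 CPM or more, above every control eye. The log2 fold change of *Bbc3* was 1.03 ± 0.39 (95% interval, 0.17 to 1.89; edgeR, adjusted p = 0.251).

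*Eda2r* (chrX:97333840-97377216, minus strand) encodes the ectodysplasin A2 receptor, a member of the TNF receptor superfamily. It had the largest fold change of the 10 genes and had the lowest mean CPM of them in control eyes, with 5 to 233 counts per library. Its levels were 0.19, 0.60 and 1.99 CPM (lowest, median, highest) in control eyes and 2.29, 3.22 and 5.56 CPM in Best1-Nrf2 eyes. The groups did not overlap, as was true of 1.17% of all genes tested. *Eda2r* had a log2 fold change of 2.81 ± 0.46 (95% interval, 1.82 to 3.80), or 7.03-fold (3.53 to 13.98), higher in 9 of 9 mice (edgeR, adjusted p = 0.00318). The difference was smallest in mouse 5, at 0.55, where the control eye was the highest of its group, and largest in mouse 2, at 4.5.

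Of the secreted and metabolic targets, *Gdf15* (chr8:70629393-70632456, minus strand) encodes a stress-induced cytokine of the TGF-β superfamily. Its levels were 2.76, 5.32 and 7.64 CPM (lowest, median, highest) in control eyes and 5.16, 12.2 and 25.1 CPM in Best1-Nrf2 eyes. Treated eyes 5, 4 and 7 were at 25.1, 23.99 and 23.9 CPM, and treated eyes 1 and 3, at 5.16 and 6.09 CPM, lay within the control range. For *Gdf15* the log2 fold change was 1.33 ± 0.32 (95% interval, 0.63 to 2.03), or 2.51-fold, higher in 8 of 9 mice (edgeR, adjusted p = 0.0382). This call was lost when mouse 2, 4, 5, 7, 8 or 9 was left out (edgeR, log2 fold change 1.16 to 1.41, adjusted p = 0.0586 to 0.121), and without mice 3, 5 and 6 (1.51, adjusted p = 0.0824) or mice 6 and 8 (1.42, adjusted p = 0.0682).

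*Sesn1* (chr10:41809935-41908424, plus strand) encodes a sestrin, a stress protein that restrains the growth kinase mTORC1. It was the single gene of the 10 with a negative log2 fold change, at -0.27 ± 0.17 (95% interval, -0.64 to 0.11; edgeR, adjusted p = 0.617). Its levels were 22.5, 47.4 and 75.9 CPM (lowest, median, highest) in control eyes and 20.6, 42.3 and 49.96 CPM in Best1-Nrf2 eyes, with 4 mice higher and 5 lower. The lowest eyes were treated eyes 6 and 3, at 20.6 and 23.6 CPM, and control eye 3, at 22.5 CPM. Its paralog *Sesn2* is known as a target of both p53 and Nrf2, and was singled out after its values were seen. It had a log2 fold change of 0.90 ± 0.27 and did not pass either (edgeR, adjusted p = 0.113). *Sesn2* did pass with the first component covariate (0.75, edgeR, adjusted p = 0.0279), without mouse 6 (1.08, edgeR, adjusted p = 0.0231) and without mice 6 and 8 (1.17, edgeR, adjusted p = 0.0221). Its levels in treated eyes 3, 6 and 8 were 11.9, 13.1 and 15.2 CPM, and the other 6 were at 35.1 CPM or more.

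**Figure D3:**
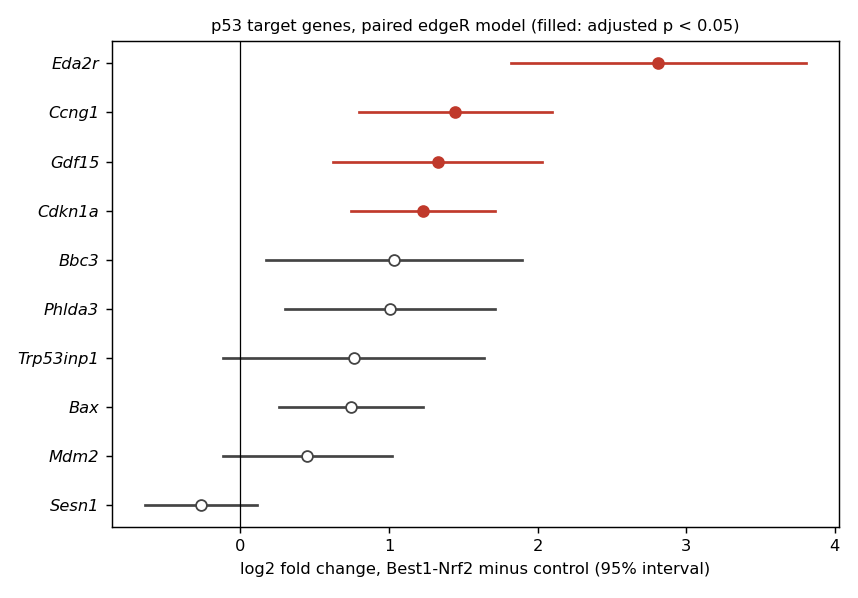
Log2 fold change of each p53 target gene between Best1-Nrf2 and control eyes with its 95% interval, in the model with mouse as a block; filled red points passed an adjusted p of 0.05. *Eda2r* lies farthest from 0 at 2.81, and the intervals of *Mdm2*, *Trp53inp1* and *Sesn1* include 0.

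Without mice 3, 5 and 6, *Cdkn1a* (log2 fold change, 1.46; edgeR, adjusted p = 0.0132), *Ccng1* (1.56, adjusted p = 0.0170) and *Eda2r* (3.08, adjusted p = 0.0158) passed. The other 7 did not, with log2 fold changes of -0.27 to 1.51 (edgeR, adjusted p = 0.0806 to 0.645). With the first component as a covariate, *Cdkn1a* (1.25, edgeR, adjusted p = 0.00596), *Ccng1*, *Gdf15* (1.29, adjusted p = 0.0441), *Eda2r* (2.86, adjusted p = 0.00316), *Bax* and *Phlda3* (0.81, adjusted p = 0.0470) passed. In that fit *Mdm2*, *Bbc3*, *Trp53inp1* and *Sesn1* did not, with log2 fold changes of -0.35 to 0.94 (edgeR, adjusted p = 0.166 to 0.390). Only *Sesn1* had a negative value in these fits.

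With upper-quartile scaling, chosen for these counts of mice after the data were seen, the treated eye was higher in 6 of 9 mice for *Bax* and *Mdm2*, 7 of 9 for *Trp53inp1* and 2 of 9 for *Sesn1*, in place of 8, 7, 6 and 4.

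The eyes that differed most were not the same ones for each gene. Mouse 2 had the largest difference for *Eda2r* (4.5), *Trp53inp1* (3.21) and *Bbc3* (2.78), whereas mouse 5 had it for *Ccng1* (2.80), *Mdm2* (1.88) and *Phlda3* (2.19). Mouse 9 had it for *Cdkn1a*, mouse 7 for *Gdf15* (2.66) and mouse 6 for *Bax* (1.73). For *Phlda3*, mouse 9 was close at 2.18, and it was the largest with upper-quartile scaling (2.07, against 2.01 in mouse 5). Over the 9 mice, none of the 9 relations between the difference of *Cdkn1a* and that of another p53 target passed (2-sided exact permutation over all pairings, Pearson adjusted p of 0.894 for each, Spearman adjusted p of 0.799 to 0.912). The strongest was that with *Bax* (Pearson r = 0.48, exact permutation p = 0.193; Spearman rho = 0.58, exact permutation p = 0.108). Without mice 1 and 9, the farthest from the *Cdkn1a* median, it was r = 0.89 (exact permutation, adjusted p = 0.00893). None of the 10 relations with the difference in counts assigned to *Nfe2l2* passed. The highest Pearson r was that of *Mdm2* (Pearson r = 0.63, rho = 0.70; exact permutation p = 0.0703 and 0.0433, adjusted p = 0.414 and 0.196), and r was 0.71 without mice 4 and 8 (exact permutation, adjusted p = 0.345). Of 11801 other genes at a mean log2 CPM of 2 or more, those with differences most like *Cdkn1a* over the 9 mice were *Gm26532* (r = 0.93), *Tanc1* (0.89) and *Card19* (0.89), none of which was called.

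**Figure D4:**
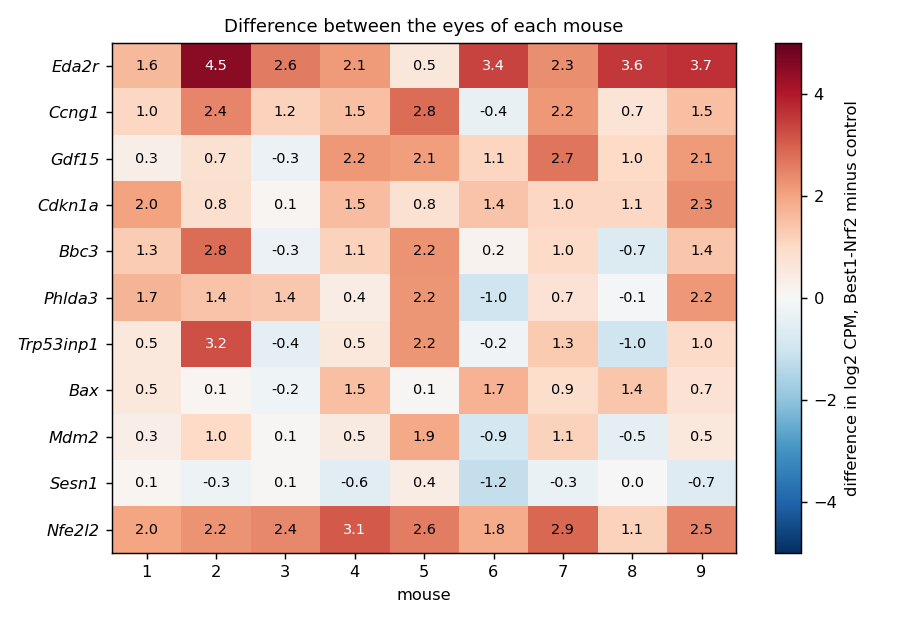
Difference in log2 CPM between the Best1-Nrf2 and the control eye of each mouse (columns) for the 10 p53 target genes and *Nfe2l2* (rows); red is higher in the treated eye and blue lower. *Eda2r* and *Nfe2l2* are higher in all 9 mice, as is *Cdkn1a* with this TMM scaling but not with upper-quartile scaling (8 of 9), and mice 3, 6 and 8 hold most of the negative values.

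Levels of different genes were compared per length, as CPM per kilobase of exon (RPKM). Genes were ranked by mean RPKM, and neighbors were tested on log2 values across eyes, which leaves out any error in exon length. In control eyes *Phlda3* (34.2 ± 19.99), *Bax* (34.0 ± 14.3), *Cdkn1a* (31.8 ± 20.01) and *Ccng1* (20.98 ± 7.72) had the highest RPKM (SD, n = 9), and neighbors among these did not differ beyond their spread (2-sided exact sign-flip permutation test, adjusted p = 0.471 to 0.831). Below them stood *Sesn1* (11.98), *Mdm2* (8.35), *Gdf15* (2.90), *Trp53inp1* (1.49), *Bbc3* (0.759) and *Eda2r* (0.107), and each step from *Ccng1* down passed the test (exact sign-flip, adjusted p = 0.0176 to 0.0352). In Best1-Nrf2 eyes the highest RPKM values were those of *Cdkn1a* (67.8 ± 35.7), *Phlda3* (64.6 ± 27.6), *Ccng1* (62.8 ± 32.4) and *Bax* (55.6 ± 17.1), again with no neighbors that differed (exact sign-flip, adjusted p = 0.799 to 0.980). *Mdm2* (12.1), *Sesn1* (9.85) and *Gdf15* (7.94) followed, with no difference between neighbors (exact sign-flip, adjusted p = 0.375 and 0.173). *Trp53inp1* (2.78), *Bbc3* (1.71) and *Eda2r* (0.614) were lowest, and the step from *Bbc3* to *Eda2r* did not pass (exact sign-flip, adjusted p = 0.0703; *Bbc3* higher in 7 of 9 eyes).

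A further 32 known p53 targets were examined as a list, chosen, like the lists below, with earlier results of these data known. Of these, 7 rose and none fell (21.9%, against 4.25% of all genes), and the median log2 fold change was 0.21. The count was 4 without mouse 2, 5 or 9, and 0, 0 and 1 with the photoreceptor, macrophage and RPE covariates. The largest was that of *Spata18*, which acts in mitochondrial quality control and had few reads, at 0 to 1.25 CPM in control eyes and 0.31 to 2.05 CPM in Best1-Nrf2 eyes, with a log2 fold change of 3.69 ± 0.69 (edgeR, adjusted p = 0.00817), a call that was lost without mouse as a block (2.55, adjusted p = 0.0825). The polo-like kinase *Plk3* rose from 6.14 ± 2.01 to 28.2 ± 16.01 CPM (log2 fold change, 2.00) and the apoptosis-enhancing nuclease *Aen* from 24.2 ± 8.07 to 67.1 ± 32.5 CPM (1.38). The phosphatase *Ptpn14* rose by 1.35 on the log2 scale. Its call was lost without mouse 1, 2, 5 or 9 (edgeR, adjusted p = 0.0513 to 0.0644) and without mice 3, 5 and 6 (edgeR, adjusted p = 0.0647). The other 3 were the death receptor *Fas* (1.26), the lipase *Abhd4* (1.22) and *Psrc1* (1.13). The remaining 25 did not pass, and they included the repair gene *Ddb2*, lower in all 9 treated eyes with a log2 fold change of -0.52 (edgeR, adjusted p = 0.139), while DESeq2 called *Ddb2* lower and voom *Btg2*. Each of these tools called 10 genes of the list higher, among them *Pidd1*, *Zmat3* and *Sesn2*, which the edgeR model did not call. The half-site decamer was found in the windows of 7 of the 23 genes of the list that had one (30.4%).

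None of the 18 regulators of p53 that could be tested was called by edgeR, and their median log2 fold change was -0.12, or -0.42 with the RPE covariate. The log2 fold change was negative for 17 of the 18, against 10047 of the 18958 genes tested. None had an unadjusted p under 0.05, and DESeq2 and voom called 0 as well. *Trp53* itself averaged 32.7 ± 6.59 CPM without and 31.1 ± 8.71 CPM with the Nrf2 vector (log2 fold change, -0.10; 95% interval, -0.45 to 0.26; edgeR, adjusted p = 0.906). *Mdm4*, the relative of Mdm2 that masks the activation domain of p53, had a log2 fold change of -0.42 (95% interval, -0.94 to 0.11). The smallest p values were those of the deacetylase *Sirt1* (-0.40; edgeR, adjusted p = 0.447) and the damage kinase *Atm* (-0.43; edgeR, adjusted p = 0.499). RNA levels do not measure the amount or the activity of p53 protein.

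Of 15 other growth-arrest genes, 4 rose and none fell (26.7%, against 4.25% of all genes), with a median log2 fold change of 0.05. The count was 2 without mouse 3, 4 or 9, without mice 3, 5 and 6 or without the block, and 0, 0 and 1 with the photoreceptor, macrophage and RPE covariates. *Cdkn2b*, which encodes the Cdk4 and Cdk6 inhibitor p15, rose from 27.7 ± 20.1 to 88.4 ± 39.7 CPM (log2 fold change, 1.83 ± 0.28; edgeR, adjusted p = 0.00245). The stress genes *Gadd45g* (1.15) and *Gadd45b* (0.85) and the Cdk inhibitor *Cdkn1c* (0.84) rose as well, each higher in 9 of 9 mice. The calls of *Gadd45b* and *Cdkn1c* were lost without mice 3, 5 and 6 (edgeR, adjusted p = 0.0613 and 0.236) and without the block (edgeR, adjusted p = 0.247 and 0.0739). That of *Gadd45b* was also lost without mouse 3, 4 or 9 (edgeR, adjusted p = 0.0509 to 0.0691). That of *Cdkn1c* was lost without mouse 2, 3, 4, 5, 7 or 9 (edgeR, adjusted p = 0.0525 to 0.104) and without the count filter (edgeR, adjusted p = 0.0559), and *Cdkn1c* shares 27.2% of its 31-base words with other genes. Of 19 proliferation genes, 2 fell and none rose (10.5%, against 1.13% of all genes that fell), 18 of 19 had negative log2 fold changes, and the median was -0.84. This median was -3.09, -1.92 and -1.68 with the photoreceptor, macrophage and RPE covariates and -0.53 without the block or without mouse 4. The mitotic checkpoint kinase *Bub1b* fell from 22.9 ± 13.3 to 4.46 ± 2.57 CPM, lower in 9 of 9 mice (edgeR, adjusted p = 7.08e-05). *Cdk1*, the kinase that drives entry into mitosis, fell from 27.5 ± 6.26 to 15.2 ± 3.16 CPM, also in 9 of 9 mice (edgeR, adjusted p = 0.00815). The call of *Bub1b* was lost with the photoreceptor covariate (edgeR, adjusted p = 0.0717) and that of *Cdk1* with each of the photoreceptor, macrophage and RPE covariates (edgeR, adjusted p = 0.120 to 1.00). In these fits 0, 1 and 2 genes of the list were called lower. The spread of the list was wide, since its mean log2 CPM was lower in 6 and higher in 3 of the treated eyes, with differences from -3.52 to 0.96.

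The lists of neighboring pathways held no called gene in the edgeR model with all 9 mice and mouse as a block. At an unadjusted p under 0.05 there were 3 in the Bcl2 family and caspases, 0 among relatives and partners and 3 in the ATF4 list, against 12.8% of all genes, and DESeq2 called 0, 0 and 1 of them and voom 1, 0 and 1. In the Bcl2 family and caspases, 17 genes were tested, with a median log2 fold change of -0.12, and the smallest p values were those of the BH3-only genes *Bid* (0.64; edgeR, adjusted p = 0.270) and *Bmf* (-0.74; edgeR, adjusted p = 0.280). *Bid* passed without mouse 6 (0.83, edgeR, adjusted p = 0.0342) and without mice 6 and 8 (0.92, edgeR, adjusted p = 0.0226). Among 8 tested relatives and partners of the 10 genes, the median was -0.20. With the photoreceptor covariate the medians of these lists were -0.81 and -1.44. *Ccng2*, the paralog of *Ccng1*, had a log2 fold change of -0.29 (edgeR, adjusted p = 0.495), and *Phlda2* one of -1.48 (edgeR, adjusted p = 0.550), which was -2.45 and passed with the first component covariate (edgeR, adjusted p = 0.0438). Of 9 genes of the ATF4 stress pathway, which is also known to control *Gdf15*, none passed and the median was -0.42, but it was -0.046 with the photoreceptor and -0.085 with the macrophage covariate. The mean log2 CPM of that list was lower in all 9 treated eyes, by 0.04 to 0.66 (in 8 of 9 with upper-quartile scaling), with *Atf3* at 0.76 (edgeR, adjusted p = 0.0757) and *Trib3* at -0.88 (edgeR, adjusted p = 0.277). *Atf3* passed without mouse 6 (0.86, edgeR, adjusted p = 0.0295) and without mice 6 and 8 (0.89, edgeR, adjusted p = 0.0321), where *Ddit3*, singled out after its value was seen, was lower (-0.86, edgeR, adjusted p = 0.0377).

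**Figure D5:**
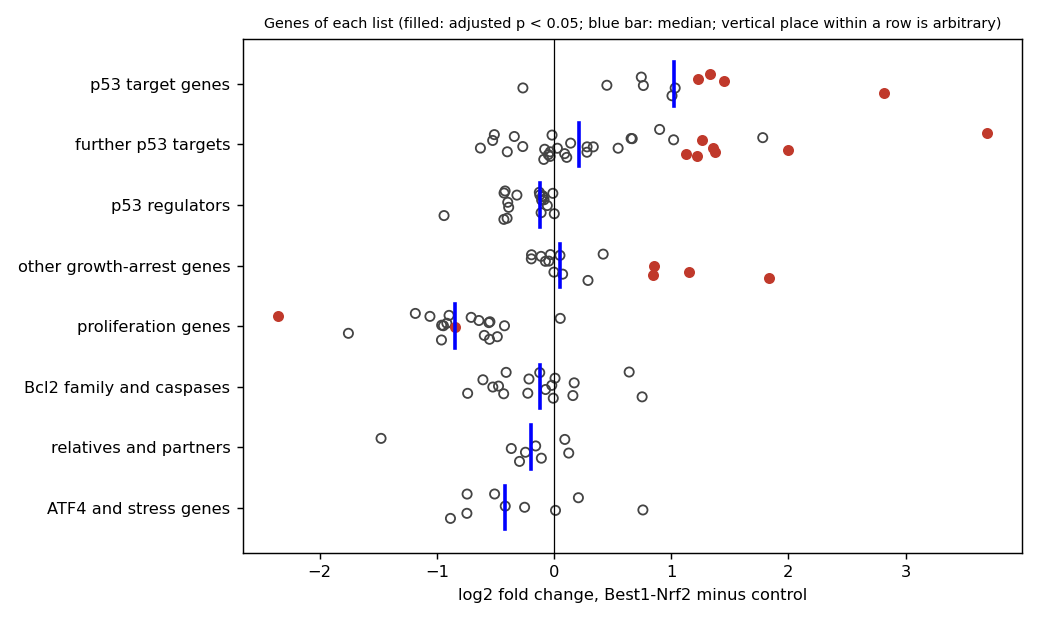
Log2 fold change of each tested gene between Best1-Nrf2 and control eyes, by list (rows); filled red points passed an adjusted p of 0.05, open points did not, and blue bars are medians. The p53 target genes have a median of 1.02 and the proliferation genes one of -0.84; the other lists lie nearer to 0.

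Markers of other cells moved between the groups as well, and their part in the p53 gene results was measured by covariate fits only. Against shares of 3.12% higher and 1.13% lower over all genes, 9 of 11 cone markers were lower with Best1-Nrf2 (median log2 fold change, -3.25), and their summed level was 314 to 2286 CPM in control and 66.9 to 635 CPM in Best1-Nrf2 eyes. Of 10 tested rod markers, 3 were lower and 1 higher, with sums of 183 to 900 and 305 to 636 CPM. Of 20 macrophage and microglia markers, 12 were higher (median, 1.65), with sums of 196 to 533 and 214 to 886 CPM. In that list 2 markers had negative log2 fold changes, and DESeq2 called 15 higher and 1 lower. Of 22 RPE markers, 5 were lower (median, -0.40), with sums of 16176 to 79459 and 19270 to 85039 CPM, and 2 of 10 fibroblast and sclera markers were higher (sums, 193 to 662 and 409 to 762 CPM). No endothelial, Müller glia or red blood cell marker was called by edgeR or had an unadjusted p under 0.05, and by DESeq2 1 Müller glia marker was lower. No marker was at 0 in all controls. Within mice, 79.5% of the variation of the photoreceptor markers, 81.3% of that of the macrophage markers and 58.6% of that of the RPE markers was shared with the group. Over all genes these fits called 43, 23 and 262. The log2 fold change of *Nfe2l2* was 1.90, 2.86 and 2.14 in these fits, and it passed with the RPE covariate only (edgeR, adjusted p = 0.0875, 0.0526 and 0.0103). Whether the p53 gene calls were lost to this overlap or to the makeup of the samples was not tested. With the photoreceptor covariate the log2 fold change was 0.99 for *Cdkn1a*, 2.75 for *Eda2r*, 1.14 for *Gdf15* and 0.30 for *Ccng1*. With the macrophage covariate it was 1.51, 1.73, 1.34 and 1.36, and with the RPE covariate 0.93, 2.93, 1.30 and 1.17, in the same order.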

How the data were processed

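The deposited table holds expected counts per gene, rounded to whole numbers by the authors and not scaled between libraries; this unit was inferred from the values. The authors mapped reads to mm10 with an Ensembl annotation by STAR, with gene counts from featureCounts and, separately, estimates from Salmon (version 0.8.1 per the submitters' notes) that entered their own tests; which of them made this table is not given in the sources used here. RNA was amplified poly(A) RNA from 18 eyes with 18956748 to 49598700 counts each. No molecular identifiers are described, so the counts can include copies made by amplification. Libraries were divided over sequencing runs that the labels do not map to samples, so run was no term.

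In R 4.3.3, genes that filterByExpr retained were scaled by TMM and tested with edgeR 4.0.16 (quasi-likelihood F test, mouse as a block, Benjamini-Hochberg threshold of 0.05 over all genes). Log2 CPM had a prior count of 2, and standard errors came from the F statistic. Pairs came from the animal number in the labels; the correlation of the eyes of a mouse after removal of group means had a median of -0.00095 (-0.37 to 0.64). No libraries of the same group were duplicates (chi-square per degree of freedom of at least 50.6 over 72 within-group pairs). RPKM used the summed exon length of GENCODE annotation on GRCm38, with symbols for 47224 of 47729 IDs, and neighbors were adjusted over 18 tests. The p53 genes and all lists were chosen with earlier results of these data known. Named are the 10 genes, *Nfe2l2*, *Trp53* and *Mdm4*; up to 4 called genes with the largest fold change in each list, or the 2 with the smallest p where fewer than 2 were called; the 3 genes most like *Cdkn1a*; and, chosen after their values were seen, the other called p53 targets, *Sesn2*, *Ddb2*, *Btg2*, *Pidd1*, *Zmat3* and *Ddit3*. Some results for single genes of the lists are not reported here. The methods were tested on simulated data, where edgeR missed many of the smaller planted changes and DESeq2 made a larger share of false calls than edgeR or voom. Alternatives were no replicate block, RLE and upper-quartile scaling, DESeq2 1.42.0, limma 3.58.1 voom, no filter, at least 10 counts in every library, a threshold of 0.1, marker covariates and leaving out each mouse; the RPE and first component covariates and leaving out mice 6 and 8, or 3, 5 and 6, were added after the data were seen.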

Additional observations from a re-analysis of the deposited data

Results flagged for a closer look

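A sample far from the others of its group was found in 2 of 36 groups of 9 eyes screened, where chance alone gives about 1.8. The control eye of mouse 8 had the highest *Nfe2l2* level of its group, 7.064 on the log2 CPM scale, and the next control eye was at 6.6. The same eye, which had the smallest library, had the highest mean log2 CPM of the p53 regulators, 4.449, and the next was at 3.911.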

How the results depend on the processing

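The median log2 fold change of the 10 p53 target genes was 0.12 with the photoreceptor covariate and 0.62 to 1.31 under every other alternative. The number called higher was 7 with DESeq2, 0 with each of the photoreceptor, macrophage and RPE covariates, and 2 to 5 when a mouse was left out, the 2 being without mouse 7. Over all genes, 940 were higher and 538 lower with DESeq2, 924 and 502 with voom, 38 and 5 with the photoreceptor covariate, 22 and 1 with the macrophage covariate, 238 and 24 with the RPE covariate, and 383 and 117 without mice 3, 5 and 6. Lower calls were 331 with the first component covariate and 366 without mice 6 and 8. When a mouse was left out, 416 to 726 genes were higher and 116 to 320 lower. Without the replicate block, 742 genes were called, 647 of them shared with the 806 of the paired model, and 3 of the 10 p53 target genes, *Cdkn1a* being lost. Signs turned with the photoreceptor covariate for *Mdm2* (-0.48), *Bbc3* (-0.056), *Trp53inp1* (-0.38), *Phlda3* (-0.81), *Sirt1* (0.26) and *Bid* (-0.55), with the macrophage covariate for *Atm* (0.51) and *Mdm4* (0.14), and with the RPE covariate for *Trp53inp1* (-0.11). None of these passed. Correlations turned for *Phlda3* with *Cdkn1a* (-0.66 without the 2 farthest mice, -0.0023 with upper-quartile scaling), and, without the 2 farthest mice, for *Cdkn1a* (-0.28) and *Sesn1* (0.35) with *Nfe2l2*. *Bax* passed with DESeq2 and the first component covariate, *Bbc3* with DESeq2 and voom, and *Phlda3* with DESeq2, voom, the first component covariate, and without mouse 6 or mice 6 and 8. The cause of these changes was not tested.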

Other observations

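The treated eyes of mice 3, 6 and 8, which were lowest for *Ccng1*, *Mdm2* and *Trp53inp1*, also had the lowest mean log2 CPM of 8 Nrf2 targets among treated eyes, at 8.14, 8.18 and 8.55. The other 6 treated eyes were at 9.18 to 10.4 and the control eyes at 5.27 to 5.96. This was noticed after the values were seen and no relation was tested. All 8 of these Nrf2 targets rose, with a median log2 fold change of 3.80.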
